A study of Mus musculus with 16 samples.

Results

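The genes described here are 6 members of the HECT class of ubiquitin ligases, Herc1, Herc2, Herc3, Herc4, Herc6 and Ube3a, of 36930 entries in the table of the whole series. They were found by their symbols, 1 entry each, and all 6 passed the filter on low values that left 21183 genes. The group was chosen by the log2 differences of these same pups between the genotypes, in which Herc1 and Herc2 were lower in Avil-ChR2 cortices, so that the genotype values of the members are given as a description, with no test. RNAseq was done on cortices of 16 C57BL6 mouse pups at an age of 7 days. Avil-ChR2 pups (n = 8) carried Avil-Cre and a floxed channelrhodopsin-2 (ChR2) with tdTomato in the Rosa26 locus, so that the light-gated channel was made where the advillin promoter drives Cre, mainly in peripheral sensory neurons. ChR2-flfl pups (n = 8) carried the same floxed allele without Cre and served as controls. Both groups received blue light for 1 h daily from day 1 to day 5. The cortex itself is not the site of the stimulated sensory endings, and a bulk cortex sample mixes all cell types, so that fewer cells of a type and less RNA per cell cannot be told apart. The labels list 4 male and 4 female ChR2-flfl pups, and 3 male and 5 female Avil-ChR2 pups. Avil-ChR2 replicate 4, labelled female, had Y-linked genes at the values of male pups. Reads per pup lay between 30549126 and 48711134, with the lowest sum in ChR2-flfl replicate 3. Nothing in the labels gives the litter of a pup, so that the spread between pups holds litter effects as well.

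HECT ligases take ubiquitin from a conjugating enzyme onto a cysteine near their own C-terminal end and pass it on to a substrate, which is then often degraded by the proteasome. HERC proteins combine this domain with repeats like those of the chromatin factor RCC1. The large members, Herc1 and Herc2, are among the largest proteins of the cell, whereas Herc3, Herc4 and Herc6 have a single RCC1-like domain. Ube3a has no RCC1-like domain, binds HERC2, and is the gene lost in Angelman syndrome, where neurons silence the paternal copy through a long antisense transcript. Herc6 is the mouse ligase for the ubiquitin-like protein ISG15 and is induced by interferon.

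To show what the members share and where they differ, the coding sequence around the catalytic cysteine was read from the longest coding transcript of the GENCODE annotation of GRCm38. Each run holds 75 bases in 5′ to 3′ direction, and the capitals mark the cysteine codon.
Herc1: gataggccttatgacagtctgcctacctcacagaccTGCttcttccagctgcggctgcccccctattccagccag
Herc2: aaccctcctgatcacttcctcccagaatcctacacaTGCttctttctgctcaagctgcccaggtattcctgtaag
Herc3: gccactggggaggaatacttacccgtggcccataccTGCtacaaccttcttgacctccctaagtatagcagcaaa
Herc4: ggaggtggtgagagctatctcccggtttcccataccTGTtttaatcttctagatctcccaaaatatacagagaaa
Herc6: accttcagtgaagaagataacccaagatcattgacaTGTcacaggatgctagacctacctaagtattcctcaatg
Ube3a: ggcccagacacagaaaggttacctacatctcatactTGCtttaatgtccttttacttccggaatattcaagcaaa
The codon was TGC in Herc1, Herc2, Herc3 and Ube3a and TGT in Herc4 and Herc6. It was codon 4809 of 4859 in Herc1, 4764 of 4836 in Herc2, 1018 of 1050 in Herc3, 1025 of 1057 in Herc4, 970 of 1003 in Herc6 and 838 of 870 in Ube3a. Herc3 and Herc4 were most alike, with 64.0% identical bases, followed by Herc1 and Herc2 with 60.0%. Herc6 and Ube3a were least alike, with 40.0%. The windows of Herc1 and Ube3a span an intron on the genome, and the other 4 lie within 1 exon.

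All 6 genes lie on the plus strand of GRCm38. Herc1 is on chromosome 9 from 66350450 to 66508775, and Herc2 on chromosome 7 from 56050155 to 56231800. Ube3a is on the same chromosome from 59227814 to 59311536, 2996 kb from the end of Herc2. Herc6 (57580992 to 57665136) and Herc3 (58831477 to 58920398) are both on chromosome 6, with 1166 kb between them. Herc4 is on chromosome 10 from 63243782 to 63317881. Herc1 and Herc2 have the largest genomic spans of the 6, with 158326 and 181646 bases, against 74100 to 88922 bases in the others.

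Several genes on the opposite strand overlap a member. The paper names a stranded library kit. Whether the counting used the strand is not given in the sources used here, so that shared stretches are uncertain. Ube3a shares 3613 bases with C230091D08Rik, which had 14.8 to 21.7 CPM. Fbxl22 shares 317 bases with Herc1 and had 0.799 to 2.06 CPM. Gm30447 at the start of Herc1 had a value in 3 pups, and Nap1l5 within Herc3 and A230073K19Rik within Ube3a had none in any pup. A missing value can mean no reads, or reads of that stretch counted to the member, and the sources used here do not say which.

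The next question was how strongly each ligase is transcribed in the P7 cortex. Values are CPM after TMM scaling, that is reads scaled to a common library size, and levels between genes were compared as CPM per kb of the longest annotated transcript, because a long transcript gives more fragments. Herc3 had the highest level, 62.5 ± 3.23 CPM per kb (SD, n = 16 pups), which may hold reads of Nap1l5 within it. Herc2 had 25.6 ± 2.48 and Herc1 19.2 ± 2.25 CPM per kb (SD, n = 16). Ube3a had 16.4 ± 1.11, Herc4 10.9 ± 0.695 and Herc6 0.553 ± 0.0662 CPM per kb (SD, n = 16). Herc6 had the lowest level of the 6 members, with 85 to 150 reads per pup behind its value.

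Each neighbouring pair in this order differed beyond its spread over pups. Herc3 was 2.45-fold over Herc2 and Herc2 1.33-fold over Herc1, each in 16 of 16 pups (exact paired permutation test, two-sided, adjusted p = 3.8e-05 over 5 pairs, from the smallest p that 16 pups allow). Herc1 was 1.17-fold over Ube3a in 15 of 16 pups (exact paired permutation test, two-sided, adjusted p = 6.1e-05). Ube3a was 1.5-fold over Herc4, and Herc4 was 19.9-fold over Herc6, in 16 of 16 pups (exact paired permutation test, two-sided, adjusted p = 3.8e-05 each). With the shortest annotated transcript, a fragment for some of these genes, the log2 ratio of Herc3 to Herc2 was -0.05 (exact paired permutation test, two-sided, adjusted p = 0.35), so that their order depends on that length. The place of Ube3a also depends on the length used, since its transcript has 9856 bases and its coding sequence 2610. By the longest transcript, coding sequence and shortest transcript, the log2 ratio of Ube3a to Herc4 was 0.58, 2.2 and 5.06. That of Herc2 to Herc1 was 0.41, 0.43 and 2.26. Per kb of coding sequence Ube3a had 61.8 ± 4.19 CPM (SD, n = 16) and ranked 2 of the 6, above Herc2 with 26.9 ± 2.61 and below Herc3 with 93.8 ± 4.84.

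Among 26 HECT ligase genes with a level, the highest were Nedd4 (139 ± 3.57 CPM per kb, SD, n = 16), which ubiquitinates membrane proteins, Herc3, and Ube3c (36.9 ± 1.03), which acts at the proteasome. The lowest were Hace1 (7.17 ± 0.481), G2e3 (3.6 ± 0.287) and Herc6. The 6 members therefore spread over the whole range of the class, from rank 2 for Herc3 to rank 26 for Herc6.

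**Figure D1:**
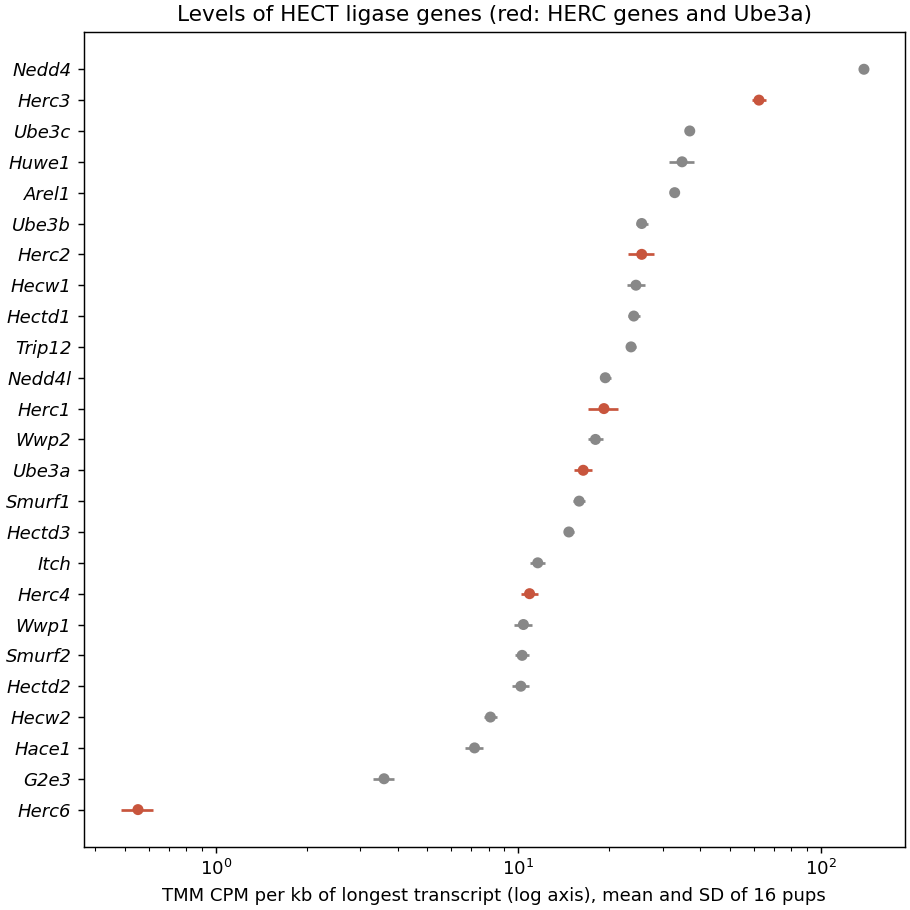
Levels of 25 HECT ligase genes in the P7 cortex as TMM CPM per kb of the longest transcript (log axis), with points for the mean and bars for the SD of 16 pups. Red points are the HERC genes and Ube3a, from Herc3 at 62.5 to Herc6 at 0.553 CPM per kb, and 1 of the 26 genes ranked in the text is not drawn.

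The members were then compared between the genotypes, with log2 differences as Avil-ChR2 minus ChR2-flfl and standard errors from limma. Over all genes, 2 passed an adjusted p under 0.05 (0.00944% of those tested), both on chromosome 10. They were Avil (log2 difference 5.23, standard error 0.091, limma adjusted p = 4.17e-19) and Mars, a methionine-tRNA synthetase (-0.15, standard error 0.022, limma adjusted p = 0.0215). Avil is the gene whose promoter drives Cre in the Avil-ChR2 pups. Since both groups received light, effects of carrying that driver and of the stimulation cannot be told apart. The call of Mars was lost with 10 of the 16 pups when each was left out in turn. None of the 6 members was among the called genes. At an unadjusted p under 0.05, 3.46% of genes were lower and 1.95% were higher in Avil-ChR2 pups.

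Herc1, a giant protein with 2 RCC1-like domains that is linked to membrane traffic, had 269 CPM in the lowest, 304 in the median and 386 in the highest ChR2-flfl pup. In Avil-ChR2 pups it had 254, 270 and 285 CPM. The groups overlapped, but 6 of 8 ChR2-flfl pups were above the highest Avil-ChR2 pup, and 4 of 8 Avil-ChR2 pups had less than any ChR2-flfl pup. The means were 312 ± 37.4 and 271 ± 10.5 CPM (SD, n = 8 each), a log2 difference of -0.20 (standard error 0.055) or -12.8%. Pups are numbered in 2 runs, 26 to 33 and 35 to 42, with 4 of each genotype per run, and the difference was -0.19 in the first run and -0.21 in the second.

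Herc2, which works in the DNA damage response and binds Ube3a, had 351, 399 and 484 CPM (lowest, median and highest) in ChR2-flfl pups and 349, 371 and 386 CPM in Avil-ChR2 pups. Here too 6 of 8 ChR2-flfl pups were above all Avil-ChR2 pups, while the lowest pups of both groups were alike. The means were 410 ± 44.1 and 370 ± 13.7 CPM (SD, n = 8 each), a log2 difference of -0.14 (standard error 0.051). In the runs of pup numbers it was -0.11 and -0.18.

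Ube3a had 148, 169 and 183 CPM in ChR2-flfl pups and 146, 155 and 167 CPM in Avil-ChR2 pups. The ranges overlapped, with 5 of 8 ChR2-flfl pups above the highest Avil-ChR2 pup. Its log2 difference was -0.08 (standard error 0.042).

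The small HERC genes lay closer together. Herc3, a cytoplasmic ligase that binds ubiquitin, had 253, 297 and 303 CPM in ChR2-flfl and 287, 294 and 324 CPM in Avil-ChR2 pups, a log2 difference of 0.04 (standard error 0.036). Herc4, which is needed for normal sperm maturation, had 39.0, 43.2 and 47.7 CPM against 37.4, 42.0 and 45.7 CPM, a log2 difference of -0.05 (standard error 0.044). Both showed broad overlap between the genotypes. Herc6 had 2.07, 2.55 and 3.11 CPM in ChR2-flfl and 2.15, 2.66 and 3.01 CPM in Avil-ChR2 pups, which is an overlap over nearly the whole range, with a log2 difference of 0.06 (standard error 0.094). The sign of this difference changed between the runs of pup numbers, with -0.01 in the first and 0.13 in the second.

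**Figure D2:**
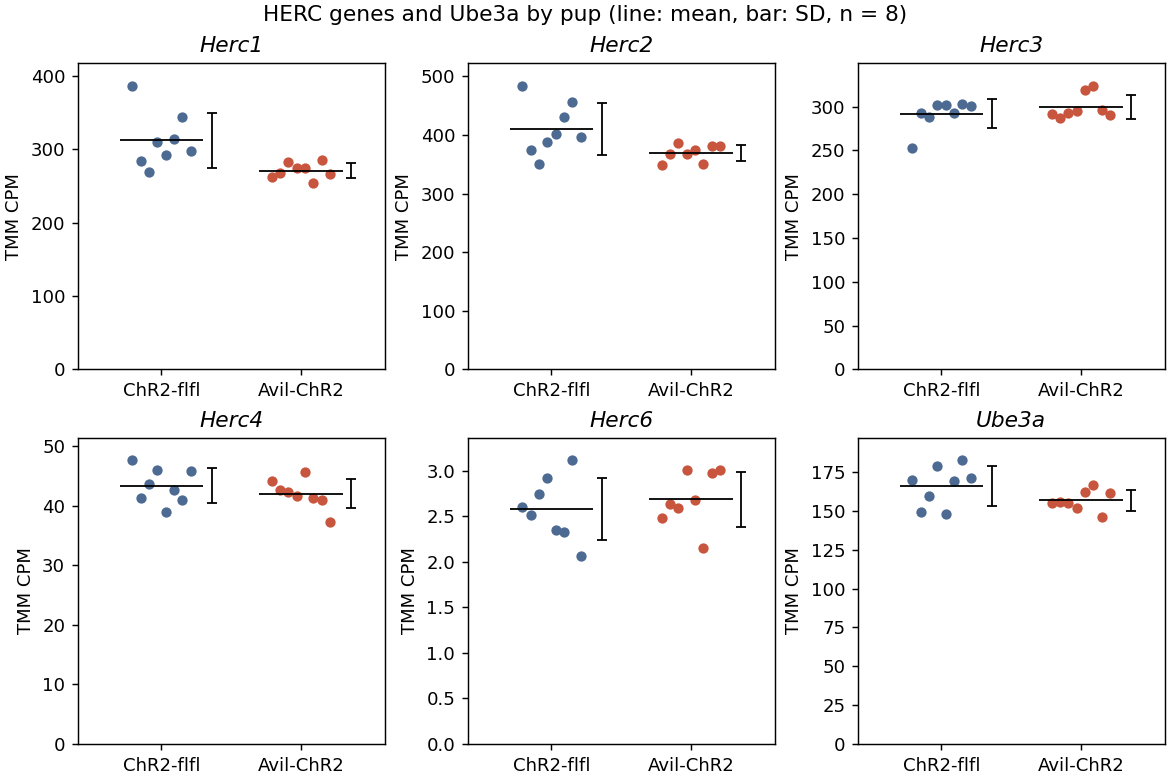
TMM CPM of each gene by pup on linear axes from 0, with blue points for ChR2-flfl and red points for Avil-ChR2 pups, lines for means and bars for the SD (n = 8 each). Herc1 and Herc2 reach 386 and 484 CPM in ChR2-flfl pups and 285 and 386 CPM in Avil-ChR2 pups, and the ranges of the genotypes overlap for all 6 genes.

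The genotypes also differed in the spread between pups. On the log2 scale the SD of Herc1 was 0.166 in ChR2-flfl and 0.0562 in Avil-ChR2 pups, and that of Herc2 was 0.153 and 0.0541. The ratio of the SDs was 2.95 for Herc1, 2.83 for Herc2, 1.85 for Ube3a, 1.32 for Herc3 and 1.14 for Herc4 and Herc6. Without ChR2-flfl replicate 1, a choice made after seeing the data, it was 2.02 for Herc1, 2.32 for Herc2, 1.98 for Ube3a, 1.23 for Herc6, 1.02 for Herc4 and 0.444 for Herc3, so that the direction turned for Herc3. This spread was not tested, and no such ratio over all genes is given beside it. ChR2-flfl replicate 1 had the highest Herc1 and Herc2 and the lowest Herc3 of all pups, with 386, 484 and 253 CPM. Without that pup the log2 difference was -0.15 for Herc1, -0.11 for Herc2 and 0.01 for Herc3. The same pup had the lowest summed microglia markers, 45.7 CPM against 59.5 to 74.4 CPM in the other ChR2-flfl pups. Its astrocyte sum, 579 CPM, was also the lowest, but ChR2-flfl replicate 8 was close to it with 582 CPM. The part of these marker sums in the result was not tested.

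For the contrast of large and small members, the mean log2 value of Herc1 and Herc2 minus that of the other 4 was taken in each pup. It was 2.89 ± 0.155 in ChR2-flfl and 2.72 ± 0.0495 in Avil-ChR2 pups (SD, n = 8 each), a difference of -0.16. The values of all 8 Avil-ChR2 cortices lay under the control mean, but none lay under the lowest control value. Without Herc6 the difference was -0.14, and 3 Avil-ChR2 pups lay under the lowest control value. Against Ube3a alone it was -0.09, with 1 such pup. With 1 added to the values before taking log2 it was -0.16, also with 1 such pup. Since Herc1 and Herc2 were picked for this contrast, these values describe it and support nothing further.

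Sex, the run of pup numbers and their interactions with genotype were not used in choosing the genes and were tested. For sex, 9 genes passed an adjusted p under 0.05 (0.0425%), and none was a member. For the run of pup numbers, 26 genes passed (0.123%), again without a member. Herc3 was the only member with an unadjusted p under 0.05 there (12.5% of all genes), with 0.08 more on the log2 scale in pups 35 to 42 (standard error 0.032, limma adjusted p = 0.323). For the genotype by sex and genotype by run interactions, 0 genes passed in limma (0% each), whereas 4.31% and 3.04% had an unadjusted p under 0.05. The voom alternative also gave 0 genes.

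Herc2 was the member with an unadjusted p under 0.05 in the interaction with sex. By the labels, male pups had 435 ± 42.6 CPM in ChR2-flfl (SD, n = 4) and 360 ± 17.9 CPM in Avil-ChR2 cortices (SD, n = 3). Female pups had 386 ± 33.9 (SD, n = 4) and 375 ± 8.06 CPM (SD, n = 5). The log2 difference was -0.27 in males and -0.04 in females, and the difference between them was 0.23 (standard error 0.091, limma adjusted p = 0.993), which did not pass. Herc1 had -0.30 in males and -0.11 in females, a difference of 0.19 (standard error 0.10, limma adjusted p = 0.993) that did not pass either. ChR2-flfl replicate 1 is male, and without it, a choice made after seeing the data, the male difference was -0.22 for Herc1 and -0.21 for Herc2, and the difference between the sexes was 0.11 and 0.18. Avil-ChR2 replicate 4 is female in the labels and male in the study's sheet. It had 54.7 CPM of Ddx3y and 64.6 CPM of Eif2s3y, in the range of the male pups. The other pups labelled female had at most 2.57 and 0.125 CPM. By these Y-linked genes the pup is male, so that the splits by label hold 1 male among the Avil-ChR2 females. With the sex of the sheet Herc2 had -0.26 in males and -0.03 in females, again a difference of 0.23 (limma adjusted p = 0.799). In limma 11 genes then passed an adjusted p under 0.05 for sex, without a member, and 0 for the interaction. For the interaction 1320 of 21183 genes had an unadjusted p under 0.05, against 912 with the labels. Xist was listed at 0 in all but 2 pups, including female pups, and was not used.

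The members were next compared with each other over pups, as deviations from the mean of their genotype. Herc1 and Herc2 moved together, with r = 0.93 and rho = 0.88 over 16 pups, and r = 0.85 without ChR2-flfl replicates 1 and 3. The other pairs had r between -0.53 and 0.35. Within the genotypes the sign could differ, as for Herc1 with Ube3a (0.56 in ChR2-flfl and -0.73 in Avil-ChR2 pups, n = 8 each) and Herc6 with Ube3a (0.41 and -0.59), and these differences were not tested. The lowest was Herc1 with Herc3, which was 0.07 without ChR2-flfl replicate 1. All points share the libraries, their depth and the TMM scaling, so that these values are descriptive.

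Genes most like each member over the 16 pups were sought among 12524 genes. For Herc1 they were Cacna1e, a voltage-gated calcium channel subunit (r = 0.981), the cytoskeletal linker Macf1 (r = 0.977) and 4932438A13Rik (r = 0.971). For Herc2 they were the linker Dst (r = 0.978) and the ubiquitin ligases Huwe1 (r = 0.972) and Mycbp2 (r = 0.969). The 100 genes most like Herc1 had a median genomic span of 140317 bases and those most like Herc2 one of 133013, against 27441 for all genes compared. For Ube3a the nearest were Atp13a3 (r = 0.919), Whsc1 (r = 0.919) and Bdp1 (r = 0.915), and for Herc3 Zfp365 (r = 0.947) and Chn1 (r = 0.94). Herc4 was nearest to Mdga2 (r = 0.853), Smad2 (r = 0.849) and Fip1l1 (r = 0.836), and Herc6 to Pdzd9 (r = 0.897), LOC105246110 (r = 0.799) and Dnah7b (r = 0.787).

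Because long genes stood out among these neighbours, the genotype difference was set beside genomic span for genes whose log2 values averaged 0 or more. The median log2 difference was 0.023 in 3576 genes under 10 kb, -0.006 in 4367 genes of 30 to 100 kb, -0.014 in the next class with 1423 genes, which holds Herc1 and Herc2, and -0.032 in the 980 longest genes. Of all 2668 genes tested with a span of at least 100 kb, 271 (10.2%) were lower and 22 (0.825%) higher at an unadjusted p under 0.05, against 3.46% and 1.95% of all genes, and none passed an adjusted p in limma. The lower quartile was -0.056 in the class of Herc1 and Herc2 and -0.043 in the class of 30 to 100 kb, which holds the other members. These members were chosen on the same differences, so that their place in a class is a description. Herc4, at -0.0456, was so near the quartile that leaving out 1 pup moved it between -0.0671 and -0.0217.

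**Figure D3:**
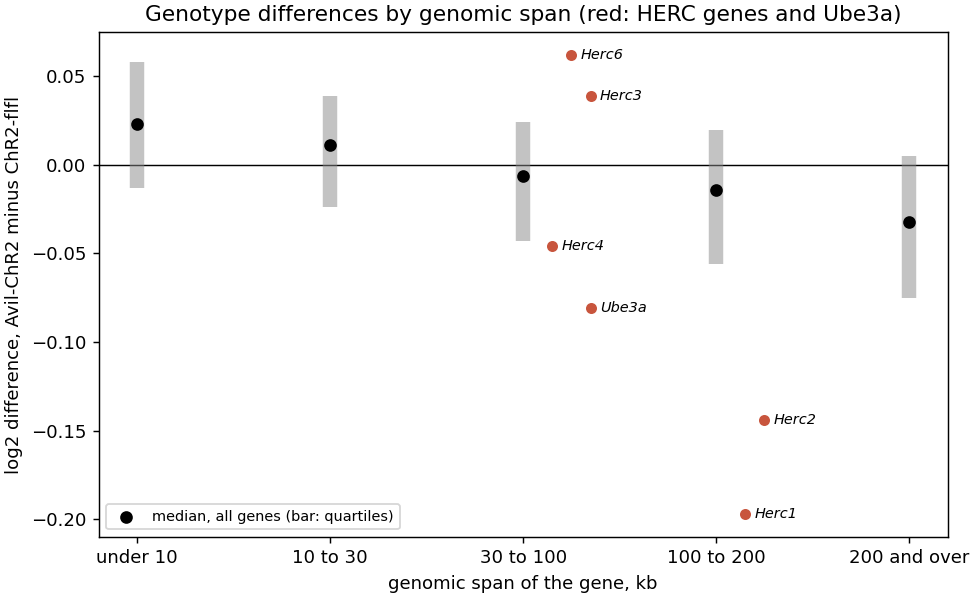
Log2 difference between the genotypes by genomic span in kb, with black points for the median and grey bars for the quartiles of all genes whose log2 values averaged 0 or more. Red points are the members, with Herc1 at -0.20, Herc2 at -0.14 and Ube3a at -0.08 below the bar of their class, Herc4 at its lower end, and Herc3 and Herc6 above the bar.

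A length slope was then calculated per pup, the regression of its log2 deviations on log2 genomic span without the members. Ube3a followed it most closely of the 6, with r = 0.85 and rho = 0.88 over 16 pups after removal of genotype means, and r = 0.79 without the 2 pups farthest from the median. For Herc1 and Herc2 r was 0.48 and 0.51. As a covariate the slope was taken from deviations about the mean of all 16 pups, so that it was not freed of genotype. It ran from -0.01088 to 0.02093 in ChR2-flfl pups, most of them positive. In Avil-ChR2 pups it ran from -0.0121 to 0.00898, most of them negative. With this covariate the log2 difference between the genotypes was -0.14 for Herc1, -0.09 for Herc2 and -0.0020 for Ube3a. Part of the genotype difference thus goes into the covariate, and these values do not separate length from genotype. The reason for the slope was not tested.

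**Figure D4:**
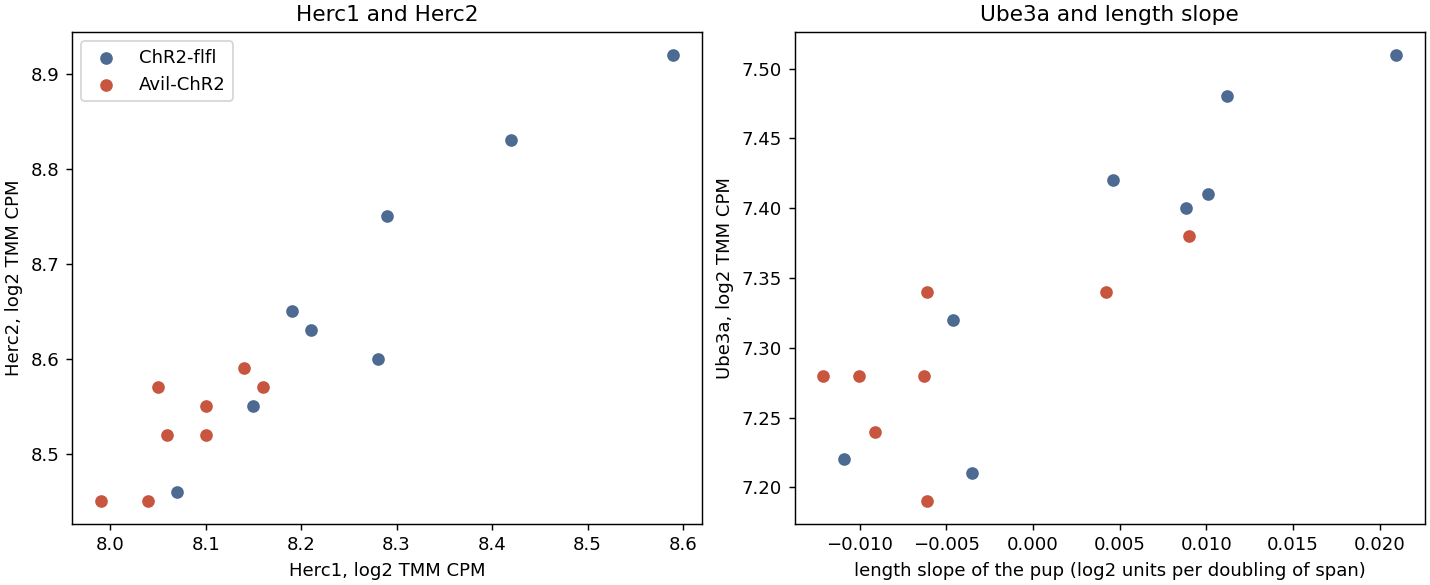
Left, log2 TMM CPM of Herc1 and Herc2 in each pup; right, log2 TMM CPM of Ube3a against the length slope of the pup in log2 units per doubling of genomic span, with blue points for ChR2-flfl and red points for Avil-ChR2 pups. Herc1 and Herc2 rise together (r = 0.93 after removal of genotype means), as do the slope and Ube3a (r = 0.85).

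Of the 21 other HECT ligases listed, 20 were tested and none passed an adjusted p under 0.05 in limma. At an unadjusted p under 0.05, 5 were lower (25%, against 3.46% of all genes) and 0 higher (against 1.95%), and the median log2 difference was -0.03 against 0.002 over all genes. The median genomic span of these ligases was 100680 bases, and among all genes of at least 100 kb 10.2% were lower. The lists were drawn up with results of these data known, so that the count is a description. Huwe1, a very large ligase that acts on p53 and Myc family proteins, had 537 ± 51.7 CPM in ChR2-flfl and 476 ± 15.2 CPM in Avil-ChR2 pups (SD, n = 8 each), which is -0.17 on the log2 scale (limma adjusted p = 0.76). G2e3 (-0.12), Hecw1 (-0.09) and Hecw2 (-0.08) were also among the 5, with limma adjusted p-values of 0.82 to 0.91. The highest differences were those of Ube3b (0.03), Arel1 (0.02) and Hectd3 (0.02). Over the 26 genes with a value Herc1 had the lowest difference, Huwe1 the next and Herc2 the one after, while Herc6 and Herc3 had the highest.

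**Figure D5:**
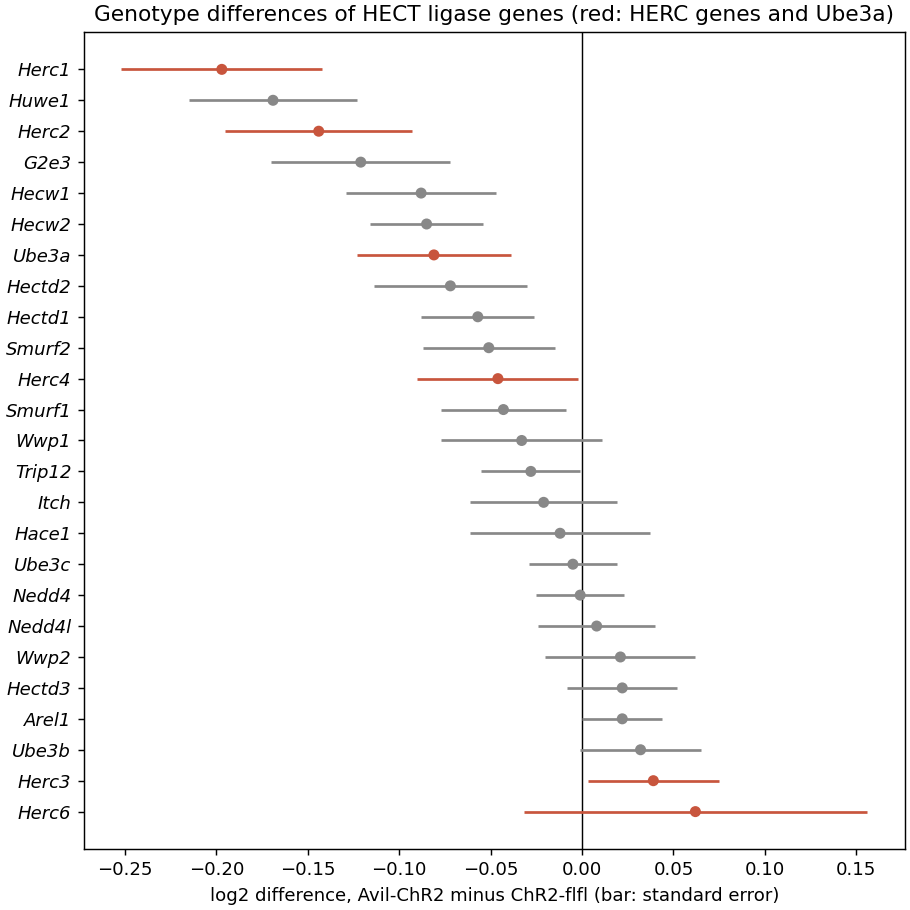
Log2 difference between Avil-ChR2 and ChR2-flfl pups for 25 HECT ligase genes, with points for the difference and bars for its standard error. Red points are the HERC genes and Ube3a, from Herc1 at -0.20 to Herc6 at 0.06, and 1 of the 26 genes is not drawn.

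Among 12 tested genes with RCC1-like repeats other than the members, 2 were lower at an unadjusted p under 0.05, Mycbp2 (-0.15) and Rcbtb1 (-0.11), with limma adjusted p = 0.81 each. This is 16.7% of the list, where 3.46% of all genes were lower and 1.95% higher. Sergef had -0.07, and Ibtk and Rcbtb2 had 0.01 each. Of 14 genes for partners and substrates of the members, none had an unadjusted p under 0.05. Their lowest differences were those of Tsc1 (-0.06), a brake on mTOR signalling, and Fbxl5 (-0.03), and the highest were Arhgef15 (0.05), Usp33 (0.03) and Rnf8 (0.02). Ubiquitin genes and activating enzymes lay between -0.04 for Uba6 and 0.03 for Ubb. In the ISG15 pathway of Herc6, Uba7 had 0.17 (standard error 0.17) and Ube2l6 0.06 (standard error 0.077), and no gene had an unadjusted p under 0.05.

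The region of chromosome 7 between Nipa1 and Snrpn holds both Herc2 and Ube3a, and it was checked whether neighbours had similar values. The list of neighbours covers a wider stretch, from Tubgcp5 to Peg12. Of 16 listed neighbours 12 were tested, none passed an adjusted p in limma, and 1 (Snhg14) was lower at an unadjusted p under 0.05, which is 8.33% of them against 3.46% of all genes, with 0 higher against 1.95%. Nipa1, next to Herc2, had a log2 difference of 0.02, and Oca2 on its other side 0.00. The GABA receptor genes Gabrg3 and Gabra5 had -0.05 and 0.03. Snhg14, the host of the Ube3a antisense transcript, had 24.5 ± 2.97 CPM in ChR2-flfl and 22.1 ± 1.61 CPM in Avil-ChR2 pups (SD, n = 8 each), which is -0.14 on the log2 scale (limma adjusted p = 0.89). Its entry in the table does not overlap Ube3a. The imprinted gene Snrpn had 0.03. Over the 16 pups Snhg14 and Ube3a rose and fell together, with r = 0.83 and rho = 0.84, and r = 0.72 without the 2 pups farthest from the median.

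Cell type markers were summed to see whether the tissue differed. Neuron markers summed to 4390 ± 78.4 CPM in ChR2-flfl and 4280 ± 89.9 CPM in Avil-ChR2 pups (SD, n = 8 each), with Map2 the most abundant, and cortical excitatory markers to 1190 ± 41.6 and 1230 ± 30.8 CPM, led by Slc17a7. Astrocyte markers had 655 ± 56.8 and 686 ± 33.1 CPM, and microglia markers, led by Csf1r, 63.4 ± 9.26 and 65.5 ± 5.4 CPM. P2ry12 was listed at 0 in all pups. Interneuron, oligodendrocyte lineage and endothelial sums had log2 ratios of 0.03, 0.02 and 0.02. Markers of striatum summed to 40.2 ± 7.54 and 41.4 ± 10.5 CPM, and those of choroid plexus, thalamus, cerebellum and sensory neurons stayed at 5.35 CPM or less in every pup. None of the 42 markers tested passed an adjusted p under 0.05 in limma. At an unadjusted p under 0.05, Map2 was lower (-0.08), which is 2.38% against 3.46% of all genes, and Slc17a7 (0.11) and Ttr (1.33, standard error 0.63) were higher, which is 4.76% against 1.95%. The choroid plexus sum had 2.74 ± 0.904 CPM in ChR2-flfl and 3.18 ± 1.01 CPM in Avil-ChR2 pups (SD, n = 8 each), and the means of its log2 values differed by 0.24, the largest such difference of the 12 marker lists. The deviations of Herc1 over the pups had r = -0.31 with the cortical excitatory sum and -0.34 with the interneuron sum. With the oligodendrocyte lineage, endothelial, striatum, thalamus and cerebellum sums r lay between -0.24 and 0.30. The strongest values were -0.75 with microglia, -0.69 with choroid plexus, -0.64 with astrocytes, -0.49 with sensory neurons and 0.47 with neurons. The sign for neurons was thus opposite to that for the excitatory and interneuron sums. Without ChR2-flfl replicate 1, again chosen after seeing the data, the values for microglia, choroid plexus, astrocytes, sensory neurons and neurons were -0.46, -0.54, -0.47, -0.48 and 0.42. With that pup included, r with the microglia sum was -0.94 within ChR2-flfl and 0.20 within Avil-ChR2 pups (n = 8 each). They are descriptive, since all sums share the libraries, and the part of cell composition in the values of Herc1 was not tested.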

How the data were processed

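Cortical RNA of 16 pups was sequenced as stranded mRNA libraries. The authors used SeqMan NGen 17 for alignment to mm10 (GRCm38), with a minimum read length of 50, and ArrayStar 17 for counting, and applied TMM factors from edgeR. The deposited values are CPM on a linear scale, 1 column per pup, with 0 columns left unused. Whole reads were recovered from the CPM steps (100.00% within 0.05 up to 20000 reads), giving 30549126 to 48711134 reads per pup, and 56 pairs of libraries of a genotype differed by more than counting noise. Intervals from depth would cover counting error only. Log2 values without a pseudocount, with missing values and values below -5 set to -5, were kept for genes above -5 in at least 12 pups. Differences were fitted by limma 3.58.1 in R 4.3.3 with an intensity trend and Benjamini-Hochberg adjustment over 21183 genes. The fit was also run on simulated data, and the outcome is not given here. The members and lists were chosen with earlier results of these data known. Named are the members, genes with an adjusted p under 0.05, the 3 lowest and 3 highest differences per list (mean log2 of at least 0) and list genes with an unadjusted p under 0.05, extremes of HECT levels, the 3 genes most like each member, overlapping genes, sex-linked genes and markers; some genes that this rule names are not reported here. Sequences are from GENCODE M21. Alternatives changed 1 choice at a time.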

Additional observations from a re-analysis of the deposited data

Results flagged for a closer look

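In ChR2-flfl pups the log2 value of Herc3 was 7.98 in replicate 1 and between 8.17 and 8.24 in the other 7, a gap of 0.725 of the whole range of the group, above Dixon's critical value for 8 pups. It was 1 of 14 groups of values checked, and chance alone marks about 1 in 20 groups. The same pup had the highest Herc1 and Herc2.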

How the results depend on the processing

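With each pup left out in turn, the log2 difference lay between -0.2269 and -0.152 for Herc1, -0.1755 and -0.1094 for Herc2, -0.1038 and -0.0605 for Ube3a, -0.0671 and -0.0217 for Herc4, 0.0101 and 0.048 for Herc3, and 0.0183 and 0.1075 for Herc6. With the length slope as a covariate Ube3a went from -0.0805 to -0.0020, Herc1 from -0.1973 to -0.1364 and Herc2 from -0.1444 to -0.0851. Each move was larger than the standard error of that gene (0.0417, 0.0548 and 0.0512). The slope was not freed of genotype, so that these moves do not separate length from genotype. Herc6 had -0.0101 in the run of pups 26 to 33 but 0.1347 in the later run. The contrast of large and small members lay between -0.1966 and -0.1241 with each pup left out. It was -0.1188 with pups 26 to 33 only and -0.2106 with pups 35 to 42 only. The count of 2 genes for genotype was 1 with median centring, the length slope as a covariate, or either run of pup numbers alone, 1 to 2 with each pup left out, and 3 with the run as a covariate. Where it was 1, no gene was called lower, so that Mars was lost, and this held without ChR2-flfl replicate 1, 2, 3, 5, 6 or 8 or Avil-ChR2 replicate 1, 2, 4 or 8. Replicate numbers did not pair the pups (r between -0.344 and 0.389 over the 8 numbers, 3 above 0.1), and the fit with the replicate block also gave 1 gene. The count of 26 genes for the run of pup numbers was 5 without a filter and 16 with sex as a covariate. Per kb of coding sequence the log2 ratio of Herc1 to Ube3a was -1.63, and per kb of the shortest annotated transcript, which is a fragment for some genes, it was -1.10, with Herc3 to Herc2 at -0.05. Of the 3 genes most like a member, a rank correlation kept 1 for Herc4, 1 for Herc6 and 1 for Ube3a, and leaving out ChR2-flfl replicate 1 kept between 0 for Ube3a and 3 for Herc6. The planned edgeR and DESeq2 fits were not run, and limma's voom on the recovered reads, chosen after seeing the data, gave 2 genes for genotype. Depth limits Herc6 most, with 85 to 150 reads per pup.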
